A study of Mus musculus with 15 samples.

Results

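The response of Δ/DN bone marrow-derived dendritic cells (BMDCs) to lipopolysaccharide (LPS) was measured by comparing the 4 libraries titled Δ/DN LPS with the 4 titled Δ/DN US, where US stands for unstimulated. These are 8 of the 15 RNA libraries of the study, chosen by their titles and not by any measured value. BMDCs are myeloid cells grown from mouse marrow, here for 9 days with the growth factor GM-CSF at 20 ng/mL, and the LPS groups then received 10 ng/mL for 18 h. Mice of both genotypes carried CreERT2, a Cre recombinase activated by tamoxifen, and a floxed Mysm1 allele that tamoxifen deletes (Δ), and marrow was collected over 12 weeks after tamoxifen. In Δ/DN mice the remaining allele encodes a MYSM1 protein without catalytic activity, and in Δ/+ mice it is wild type, so the control genotype carries the deletion too. MYSM1 removes ubiquitin from histone H2A. The sources used here name no promoter for CreERT2 and do not say that the cultures came from separate mice, so p-values describe the spread between cultures at most. The 4 Δ/DN cultures each gave a US and an LPS library, and values are listed below in the order of cultures 1 to 4 as numbered in the titles. Cultures 1 and 2 carry the library prefix 2, and cultures 3 and 4 the prefix 3, called library set 2 and set 3 here. Genotypes here follow the sample titles. The series description assigns the lettered animal groups to the genotypes the other way round, so the names Δ/DN and Δ/+ would change places if it were right, while the same 8 libraries would still be compared.

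LPS, a component of the outer membrane of Gram-negative bacteria, is sensed by TLR4 with its partners CD14 and MD-2. One arm of the signal runs through the adaptor MYD88 to the transcription factor NF-kB and to genes of inflammatory cytokines. The other runs through the adaptor TRIF to interferon beta, which acts back on the cells through its receptor and raises interferon-stimulated genes. Dendritic cells exposed to LPS mature: they stop taking up antigen, display costimulatory molecules and become able to prime T cells.

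The Δ/DN libraries held 63290541 to 90298588 reads counted in genes, and between 24749 and 26828 genes had a read. Levels are given in CPM, counts scaled to library size, here with TMM factors, which correct for differences in library composition. Differences are given as log2(LPS/US) ± an approximate standard error (SE) from 1 model across all genes. A gene is said to have risen or fallen when its adjusted p in edgeR's quasi-likelihood test, with Benjamini-Hochberg adjustment over the 20865 genes tested, was under 0.05. On the first principal component of log2 CPM (60.7% of the variance) the US libraries lay between -97 and -50.2 and the LPS libraries between 54.9 and 99. The US library of culture 3 stood apart before LPS. It lay at 74.2 on the second component (11.6%), its TMM factor was 1.03 against 1.3 to 1.33 in the other 3 US libraries, and its interferon-stimulated and inflammatory genes were already raised. For most of those genes the difference is therefore given with and without culture 3.

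LPS changed the level of 10052 of 20865 genes in Δ/DN cells (48.2%), with 4824 higher (23.1%) and 5228 lower (25.1%). Counts of list members given below are to be read against these shares. Changes of at least 1 log2 unit were called in 2471 genes higher (11.8%) and 2428 lower (11.6%). The large changes were mostly increases, with 244 genes at least 4 log2 units higher and 43 at least 4 log2 units lower. For 8531 genes (40.9%) the LPS libraries all lay on one side of the US libraries, and this held for 8091 of the called genes. Read within library set, which the model takes as a term, 8764 genes were called in set 2 alone and 1948 in set 3 alone, each with 2 Δ/DN cultures. The set 3 fit held fewer libraries, as every Δ/+ LPS library is of set 2, so its spread was less well estimated. Counts of calls in the sets therefore do not compare the size of the response. Of the 200 called genes that carry values in this text, all 200 were called in the same direction in set 2 alone and 130 in set 3 alone, where none turned round.

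**Figure D1:**
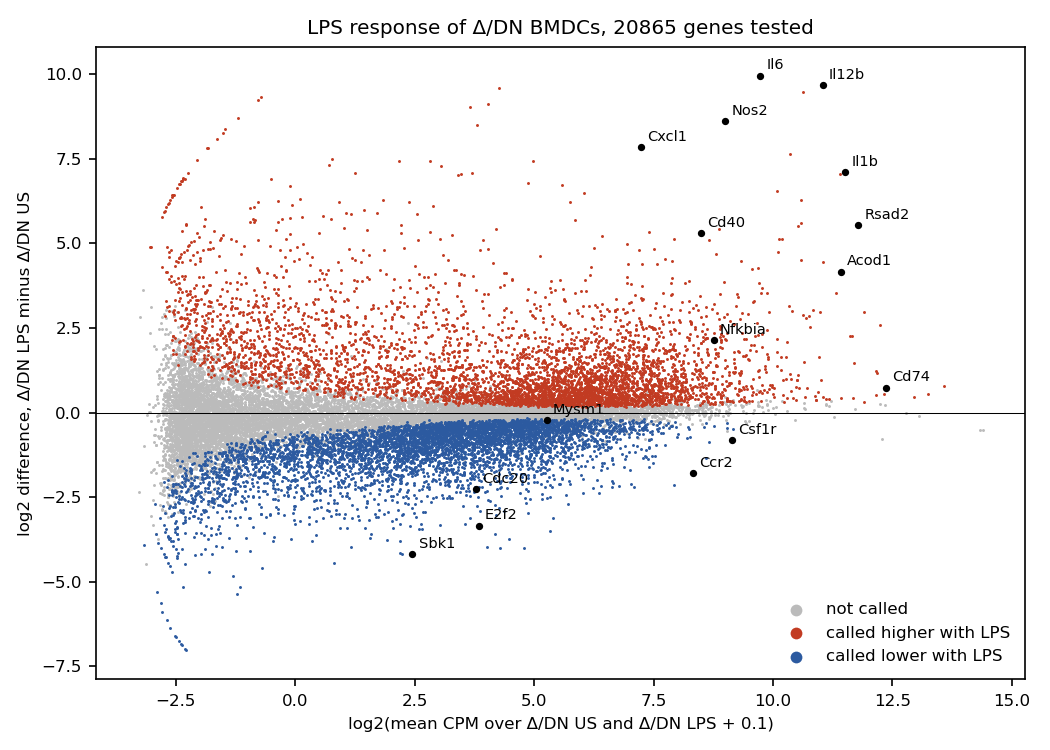
Difference by LPS against level for every gene tested in Δ/DN cells. The x axis is log2 of the mean CPM over the 8 libraries plus 0.1, the y axis is log2(LPS/US), red and blue points are the 4824 genes called higher and the 5228 called lower, grey points were not called, and labelled black points are genes discussed in the text. Il6 and Il12b stand near the top at over 9 log2 units, Sbk1 at -4.19 is the lowest labelled gene, and the few genes further down lie at low levels on the left.

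The balance of rises and falls depends on the scaling. The LPS libraries had TMM factors of 0.775 to 0.94, and with library totals in place of TMM, an alternative chosen after seeing the data, the median log2 difference over all genes moved from -0.092 to -0.671, a shift of -0.579. Then 13546 genes were called, 2361 higher and 11185 lower, so that 17.4% of the calls were rises instead of 48%. All 5228 falls stayed falls, and of the 2471 rises of at least 1 log2 unit 2111 were still called higher. Small rises are thus relative to the other genes of the same libraries. Because RNA came from whole cultures, fewer cells of a type and less RNA per cell cannot be told apart.

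Sensing of LPS and related ligands changed in both directions. Of 28 genes of the LPS receptor and Toll-like receptor pathway, 17 rose and 5 fell, with a median of 0.71. Cd14, the co-receptor that hands LPS to TLR4, stood at 58.1, 55, 161 and 61.5 CPM without LPS and at 676, 693, 674 and 702 CPM with LPS. The LPS libraries were level with each other, while the US library of culture 3 was well above the other US libraries; the groups did not overlap (log2 difference 3.12 ± 0.27, adjusted p = 8e-07; 3.59 without culture 3). Tlr4 itself went the other way, from 194, 201, 255 and 216 CPM to 123, 128, 114 and 124 CPM. Every LPS library was below every US library, and the loss came to 1.76-fold (log2 difference -0.82 ± 0.12, adjusted p = 4.6e-05). Receptors for other ligands rose, among them Tlr2 for bacterial lipoproteins (1.03 ± 0.23, 1.4 without culture 3), Tlr3 for double-stranded RNA (3.14 ± 0.58, 3.71 without it) and Tlr7 for single-stranded RNA (2.11 ± 0.15). The adaptor Myd88 rose by 1.44 ± 0.20, the kinase Irak2 by 1.35 ± 0.12, and Irak3, an inhibitory member of the kinase family, by 2.04 ± 0.11. Tab1, a partner of the kinase TAK1, fell from 10.5 to 12.7 to 3.93 to 5.88 CPM (log2 difference -1.19 ± 0.14, adjusted p = 7.6e-06).

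NF-kB genes and their inhibitors rose together. In the list of 17 subunits, inhibitors and kinases, 16 rose, 14 of them by at least 1 log2 unit, and the median was 1.42. The exception was Map3k14, the kinase that starts the non-canonical pathway, which overlapped between groups (-0.29 ± 0.16, adjusted p = 0.16) and was called lower with the cultures as a block (adjusted p = 0.032). Nfkbiz, an atypical IkB protein needed for late genes such as Il6, went from 13, 12.8, 15.3 and 12.3 CPM to 503, 552, 481 and 353 CPM. Culture 4 ended lowest, yet its LPS library was far above all US libraries (log2 difference 5.13 ± 0.17, adjusted p = 3.5e-10). The subunits followed with log2 differences of 2.33 ± 0.13 for Rel, 2.27 ± 0.14 for Nfkb1, 2.12 ± 0.12 for Nfkb2 and 1.37 ± 0.11 for Rela. Nfkbia, which encodes IkB alpha and holds NF-kB in the cytoplasm, rose from 156, 119.7, 253 and 116 CPM to 708, 622, 847 and 638 CPM without overlap (log2 difference 2.14 ± 0.20, adjusted p = 6.5e-07).

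Brakes on the signal rose as well. Among 26 negative regulators of inflammatory signalling 22 rose and 2 fell, with a median of 1.49. Tnfaip3 encodes A20, an enzyme that edits ubiquitin chains on signalling proteins; it went from 98.3, 74.3, 149 and 70.1 CPM to 1201, 999.8, 1378 and 866 CPM. That is an 11.4-fold rise with no overlap (log2 difference 3.51 ± 0.23, adjusted p = 4.6e-08). Others were Peli1, a ubiquitin ligase (3.38 ± 0.13), Zc3h12a, the RNase Regnase-1 that cuts cytokine mRNAs (2.79 ± 0.13), and the cytokine signalling inhibitors Socs3 (3.07 ± 0.33, 3.52 without culture 3) and Socs1 (2.23 ± 0.25). The falling members were Sigirr, a decoy-like receptor of the interleukin-1 family, which dropped from 2.6 to 4.66 to 0.4 to 1.26 CPM (log2 difference -2.14 ± 0.35, adjusted p = 0.00012), and Dusp6, a phosphatase of ERK kinases (log2 difference -1.23 ± 0.28, adjusted p = 0.0025).

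Cytokine genes gave the largest changes. Of 32 cytokines tested 27 rose and 4 fell (2 without culture 1 or without culture 2), against 23.1% and 25.1% of all genes, and the median was 4.98 (5.54 without culture 3). Summed over the list, the US libraries held 988, 868, 1900 and 887 CPM and the LPS libraries 37900, 30600, 29600 and 23800. Il6, a pleiotropic inflammatory cytokine, stood at 0.765, 1.97, 3.3 and 0.797 CPM in US and at 2298, 1361, 2002 and 1109 CPM in LPS libraries. The groups were far apart, and the modelled difference was 9.95 ± 0.61 (adjusted p = 8.4e-08). Il12b, the p40 chain shared by IL-12 and IL-23, went from 4.87, 8.88, 4.03 and 3.23 CPM to 5710, 5001, 3165 and 2973 CPM. Cultures 1 and 2 reached higher levels than cultures 3 and 4, again without overlap between treatments (log2 difference 9.67 ± 0.38, adjusted p = 8.8e-10). The partner chains were almost silent before LPS: Il12a, the p35 chain of IL-12, had 0, 6, 3 and 11 reads in the US libraries, the first below a limit of 0.0364 CPM that 3 reads would give, and 2617, 2109, 2421 and 1770 reads with LPS (log2 difference 9.11 ± 0.58, adjusted p = 1.1e-07). Il23a, the p19 chain of IL-23, had 2, 2, 8 and 4 reads before and 2159, 1478, 2200 and 926 reads after (log2 difference 9.02 ± 0.52, adjusted p = 4.8e-08). Both chains of IL-27 rose, Il27 from 0.388 to 1.42 to 62.2 to 124 CPM and Ebi3 from 13.7 to 18.8 to 72 to 90.9 CPM.

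Tnf, which encodes tumour necrosis factor, was at 53.7, 43.3, 108 and 49.8 CPM in US and 3546, 2678, 2754 and 2482 CPM in LPS libraries. Culture 3 started highest and culture 1 ended highest, with a 45.4-fold modelled rise (log2 difference 5.51 ± 0.33, adjusted p = 2.6e-08). Il1b, the pyrogenic interleukin-1 beta, went from 23.2, 20.8, 124 and 18.7 CPM to 6828, 5385, 5939 and 5055 CPM. The US library of culture 3 was far above the other US libraries, so the difference of 7.11 ± 0.65 (adjusted p = 2.2e-06) became 8.12 without that culture. Il1a rose by 7.04 ± 0.42 and the receptor antagonist Il1rn, which blocks both, by 2.99 ± 0.25 (3.25 without culture 3). Csf3, the granulocyte growth factor G-CSF, had at most 10 reads in any US library and 379, 528, 605 and 1070 reads in the LPS libraries (log2 difference 7.42 ± 0.50, adjusted p = 6.9e-08; 8.34 without culture 2 and 6.75 without culture 4). Leaving out culture 3 moved Il6 to 10.42, Il23a to 9.48, Il1a to 7.62 and Tnf to 5.9, and leaving out culture 4 moved Il12a to 9.91.
Low levels limited what could be read for the last 2 cytokines. Ifnb1, interferon beta, had 0, 2, 14 and 0 reads in the US libraries and 283, 138, 362 and 185 reads in the LPS libraries, and Il10, an inhibitory cytokine, had 3, 0, 8 and 0 and 276, 162, 642 and 180 reads. The 14 Ifnb1 reads of culture 3 made up most of those found without LPS, and leaving that culture out moved the difference from 6.23 ± 0.83 to 8.39, and that of Il10 from 7.09 ± 0.94 to 7.93; without culture 1 Ifnb1 was at 5.62. Tnfsf15, a TNF family ligand, rose from 7.61 to 22.3 to 1778 to 3445 CPM (log2 difference 7.63 ± 0.41, adjusted p = 1.7e-08), whereas Tnfsf14, a ligand of the same family, fell from 2.97 to 4.59 to 0.467 to 1.3 CPM (log2 difference -2.27 ± 0.33, adjusted p = 5e-05).

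Chemokines for neutrophils, monocytes and T cells rose together: 19 of 25 tested were higher, 18 by at least 1 log2 unit, and the remaining 6 were not called. Ccl11, Ccl20 and Cxcl13 were on the list with too few reads to test. Cxcl1, a neutrophil attractant, stood at 0.874, 1.22, 2.76 and 0.461 CPM without and 310.3, 178, 528 and 181 CPM with LPS. Culture 3 was highest in both groups, which did not overlap (log2 difference 7.83 ± 0.64, adjusted p = 1.1e-06; 8.09 without culture 3). Its relative Cxcl2 went from 22.9, 16.2, 39.5 and 13.1 CPM to 2659, 2069, 2191 and 1742 CPM, a 93.9-fold rise (log2 difference 6.55 ± 0.39, adjusted p = 3.6e-08), and Cxcl5 rose by 7.08 ± 0.44. Ccl3, an attractant of monocytes and T cells, rose by 5.61 ± 0.36 (6.06 without culture 3), Ccl5 by 4.49 ± 0.36 and the monocyte attractant Ccl2 by 2.52 ± 0.33 (3.06 without it). Ccl22 and Ccl17, made by dendritic cells for T cells bearing CCR4, were already well expressed before LPS. Ccl22 went from 817, 921, 959.7 and 653 CPM to 7426, 8300, 6412 and 5013 CPM (log2 difference 2.98 ± 0.28, adjusted p = 9.2e-07), and Ccl17 from 455 to 691 to 1475 to 2463 CPM (log2 difference 1.65 ± 0.21, adjusted p = 1.2e-05). Among the 6 not called, Ccl6 overlapped between groups at 2359 to 3048 and 2252 to 2727 CPM.

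Chemokine receptors split, with 9 of 21 higher and 6 lower. Ccr7, which guides maturing dendritic cells to lymph nodes, rose from 161, 197, 156 and 114 CPM to 432, 616, 401 and 307 CPM (log2 difference 1.46 ± 0.22, adjusted p = 8.2e-05). Ccr2, which draws monocytes out of marrow, fell from 492, 460.1, 482 and 560.4 CPM to 192, 128, 109.5 and 148 CPM. All LPS libraries of the first were above, and of the second below, the US libraries (log2 difference -1.79 ± 0.31, adjusted p = 0.00034 for Ccr2). Cxcr4, the receptor for CXCL12, dropped to 5.25 to 9.47 CPM from 25.9 to 39.1 CPM (log2 difference -2.23 ± 0.33, adjusted p = 9.8e-05), and Ccr1 fell by 0.71 on the log2 scale. Ccrl2, a non-signalling receptor that holds chemerin, rose by 4.8 ± 0.31 (5.11 without culture 3). The list's median was 0.59 with TMM scaling and -0.01 with library totals.

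**Figure D2:**
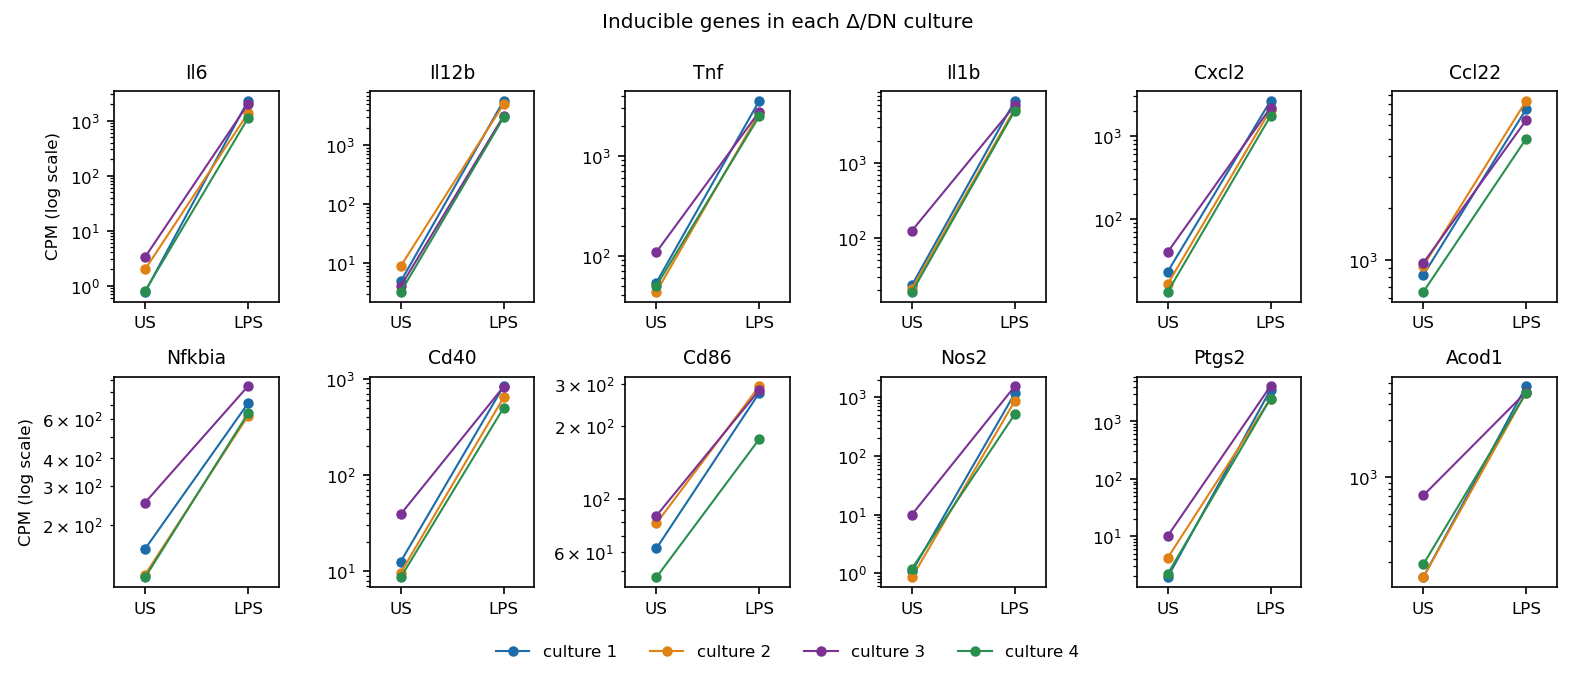
Levels of 12 inducible genes in each Δ/DN culture, in CPM on a log axis, with a line from the US library to the LPS library of the same culture. Every line rises for every gene. The line of culture 3 starts highest for every gene except Il12b, and on the log axis its gap to the others is widest for Il1b, Nos2 and Acod1.

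Promoter sequences of inducible genes were read from RefSeq on build GRCm38.p6, which differs from the build of the counts and serves here for sequence only. A letter pattern like the NF-kB site, GGGA and then TTCC set 2 bases apart on either strand, was searched in the 250 bases before each start. Promoters were in the table for 12829 of the genes tested (61.5%), and 1.6% of those genes held the pattern. It was held by 3.37% of the 741 genes with a promoter that rose by at least 2 log2 units (25 genes), by 4 of 17 chemokines (23.5%) and by 4 of 24 cytokines (16.7%). Of all genes that rose 2.29% held it, and of those that fell 1.37%. Other lists that rose held it in 4 of 42 antiviral genes (9.52%) and in 0 of 26 costimulation and maturation genes. These shares are a description, since a match is not a bound site, and genes without a match may hold sites elsewhere. The windows of 3 strongly induced genes and 1 inhibitor are shown to let the pattern be seen, each 80 bases long, 5′ to 3′ on the gene's strand, with the match in capitals. They are Il6 (chr5:30013034-30013113, plus strand, match from -44), Cxcl1 (chr5:90891139-90891218, plus strand, overlapping matches from -71 and -70), Cxcl10 (chr5:92349031-92349110, minus strand) and Nfkbia (chr12:55492648-55492727, minus strand, match from -29), counted from the start site. In Cxcl10 the first capitals are an interferon-type match, from -213, and the second the NF-kB-type match, from -159.
Il6: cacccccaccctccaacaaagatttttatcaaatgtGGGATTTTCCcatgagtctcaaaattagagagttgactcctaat
Cxcl1: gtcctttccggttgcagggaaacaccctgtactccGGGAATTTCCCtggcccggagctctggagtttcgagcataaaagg
Cxcl10: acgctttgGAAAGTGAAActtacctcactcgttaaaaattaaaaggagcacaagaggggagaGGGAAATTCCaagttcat
Nfkbia: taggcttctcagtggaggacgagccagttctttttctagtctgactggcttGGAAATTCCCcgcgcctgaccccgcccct

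Interferon-stimulated genes rose almost without exception. Of 55 antiviral genes of the type I interferon response 54 rose, each by at least 1 log2 unit, and all 20 interferon-inducible GTPases rose, against 11.8% of all genes at that size. The medians were 2.46 and 2.92, and they depended on culture 3: per culture the antiviral median was 3.26, 3.46, 1.69 and 2.6, and the GTPase median 3.85, 3.64, 2.02 and 3.12. Without culture 3 the medians were 3.05 and 3.53, and all 55 and 20 were called. Summed over the antiviral list, the US libraries held 4270, 3480, 13200 and 4280 CPM and the LPS libraries 55500, 44100, 55600 and 32300 CPM. Culture 3 started well above the others and ended level with culture 1. In set 3 alone, where culture 4 is the only other Δ/DN culture, 11 antiviral genes and 1 GTPase were called in a fit with fewer libraries. The medians were 1.94 and 2.31 there and 3.38 and 3.83 in set 2 alone. With library totals in place of TMM, 54 of 55 and 19 of 20 were still called higher.

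The exception among the antiviral genes was Ifi27l2a, an interferon-induced mitochondrial protein gene, at 25 to 75.5 CPM and 45.2 to 93.8 CPM (0.73 ± 0.38, adjusted p = 0.14), and it was called higher with the cultures as a block (adjusted p = 0.0001). Rsad2, which encodes the antiviral enzyme viperin, had 41.2, 31, 615 and 51.2 CPM in the US and 8650, 6433, 8452 and 3899 CPM in the LPS libraries. Even the raised US library of culture 3 lay below all LPS libraries, and the difference was 5.53 ± 1.07 (adjusted p = 0.001), or 7.13 without that culture. Isg15, a ubiquitin-like modifier, went from 14.4, 8.46, 139 and 14.5 CPM to 480.5, 402, 495 and 316 CPM. Its difference was 3.47 ± 0.95 (adjusted p = 0.01), 4.93 without culture 3, and 2.92 without culture 1, where it was not called (adjusted p = 0.056). The sensors and effectors behaved likewise: Ifit1, Ifit2 and Ifit3, which bind foreign RNA, rose by 4.74 ± 0.97, 4.5 ± 1.03 and 3.87 ± 1.02, and by 5.98, 5.9 and 5.22 without culture 3. Without culture 1 the difference of Rsad2 was 4.81 and that of Ifit2 3.85, and without culture 2 4.83 and 3.85. Reads of Ifit3 may be shared with its close copy Ifit3b.

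Oasl1, a relative of the RNA-sensing oligoadenylate synthetases, rose from 7.22 to 64.6 to 686 to 1066 CPM (5.43 ± 0.96, 6.72 without culture 3). Culture 3 weighed less in other members: Mx1, a GTPase against influenza-type viruses, rose by 3.31 ± 0.44 (3.34 without it), Trim25, a ubiquitin ligase of RNA sensing, by 1.76 ± 0.14 (1.86) and Samhd1, which depletes nucleotides, by 1.57 ± 0.23 (1.78). The transcription factors of the loop rose too. Irf7 stood at 26.5, 15.7, 174 and 28 CPM without and 658, 486, 659.5 and 366 CPM with LPS (log2 difference 3.28 ± 0.80, adjusted p = 0.0051; 4.33 without culture 3). Irf9 rose by 1.21 ± 0.19.

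The GTPases act at the vacuoles of intracellular microbes. Gbp2, a guanylate-binding protein, stood at 154, 137, 462 and 136 CPM in US and 2028, 1486, 2109 and 1228 CPM in LPS libraries (log2 difference 2.96 ± 0.45, adjusted p = 0.00013; 3.45 without culture 3). Irgm1, a regulator of the immunity-related GTPases, went from 44 to 218 to 477 to 864 CPM (log2 difference 2.85 ± 0.51, adjusted p = 0.00057; 3.37 without it). The groups did not overlap for either gene. Gbp5 rose by 4.26 ± 0.51 (4.81), Iigp1 by 4.87 ± 1.07 (5.94) and Gvin1, whose reads may be shared with near-identical copies, by 2.25 ± 0.30 (2.62), each second value being the one without culture 3. The chemokines Cxcl10 and Cxcl9, which draw CXCR3-bearing T cells, showed the same start in culture 3. Cxcl10 had 14.8, 9.46, 144 and 12.6 CPM and 3482, 2607, 3613 and 2397 CPM (log2 difference 6.28 ± 1.04, adjusted p = 0.00035), with 7.82 when culture 3 was left out, and Cxcl9 rose by 6.5 ± 1.12 (8.31 without culture 3 and 5.81 without culture 1).

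**Figure D3:**
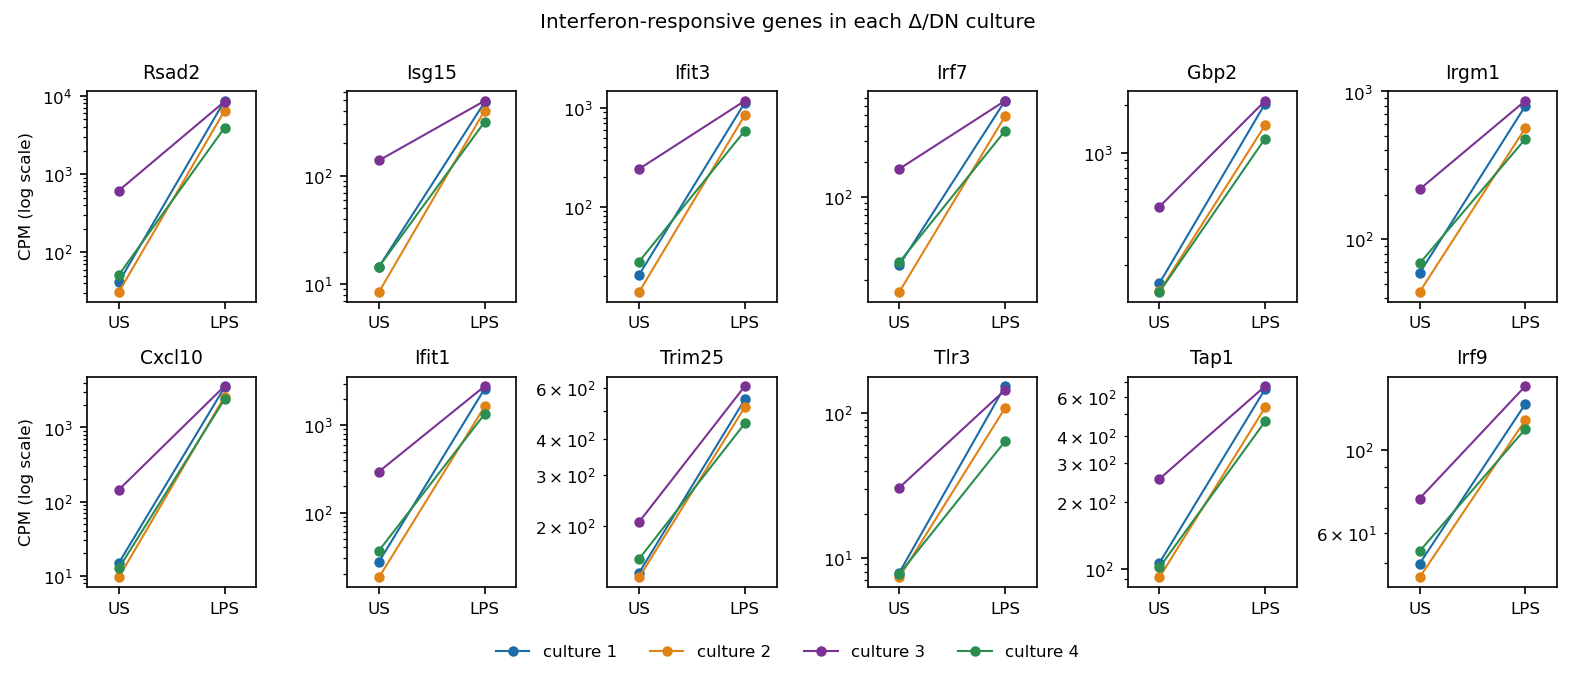
Levels of 12 interferon-stimulated genes in each Δ/DN culture, in CPM on a log axis, with a line from the US to the LPS library of a culture. All lines rise; the line of culture 3 starts above the others in each panel and ends highest or second highest, as for Rsad2, where it starts at 615 CPM.

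The same promoter search with 2 copies of GAAA set 2 bases apart, the core of the interferon-stimulated response element, gave 3.36% of all genes with a promoter. It was held by 11 of 12 GTPase genes in the table (91.7%), 15 of 42 antiviral genes (35.7%), 10.3% of the genes that rose by at least 2 log2 units and 2.34% of those that fell. In 8 promoters it overlapped a match of the pattern TTTGAA and in 3 a match of TTTCCCGC, both used further on, and it overlapped the NF-kB pattern in none. The windows below show 4 such genes in which the match lies close to the start, capitals marking the match on either strand (overlapping matches run together). They are Isg15 (chr4:156200846-156200925, minus strand, matches from -78 to -66), Ifit1 (chr19:34640759-34640838, plus strand, from -104 and -85), Gbp2 (chr3:142620569-142620648, plus strand, from -59) and Irgm1 (chr11:48871421-48871500, minus strand, from -30 and -24).
Isg15: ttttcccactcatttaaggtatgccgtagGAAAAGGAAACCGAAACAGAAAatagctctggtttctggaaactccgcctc
Ifit1: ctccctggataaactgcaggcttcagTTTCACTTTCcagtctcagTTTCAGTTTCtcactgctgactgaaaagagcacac
Gbp2: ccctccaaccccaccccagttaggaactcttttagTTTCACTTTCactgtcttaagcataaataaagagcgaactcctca
Irgm1: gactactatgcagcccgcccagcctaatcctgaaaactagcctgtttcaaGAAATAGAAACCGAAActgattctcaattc

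Other transcription factors of dendritic cell activation moved in both directions, with 16 of 28 interferon regulatory factors, STATs and AP-1 factors higher, 5 lower and a median of 0.78. Irf1, a driver of Il12 and guanylate-binding protein genes, rose from 43.4 to 86.1 to 269 to 359 CPM (log2 difference 2.47 ± 0.24, adjusted p = 2.4e-06; 2.67 without culture 3). Irf8, which specifies a lineage of dendritic cells, rose by 2.09 ± 0.23. Stat5a, which signals from the GM-CSF receptor, went from 81.2 to 92.1 to 408 to 619.6 CPM (log2 difference 2.64 ± 0.16, adjusted p = 2e-08) and the AP-1 factor Batf by 2.1 ± 0.17.

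Costimulation and maturation genes rose broadly. Of 36 tested 29 were higher, 28 by at least 1 log2 unit, and the other 7 were not called; the median was 2.11. Cd40, the receptor through which T cells license dendritic cells, had 12.7, 9.7, 39.3 and 8.68 CPM without and 836, 638, 826 and 499 CPM with LPS. The US library of culture 3 was again highest of its group, below all LPS libraries (log2 difference 5.3 ± 0.65, adjusted p = 3.2e-05; 5.99 without culture 3). Cd86, a ligand of CD28, went from 62.1, 78.9, 84.9 and 47.1 CPM to 275, 293, 282 and 177 CPM, with culture 4 lowest in both groups and no overlap (log2 difference 1.9 ± 0.19, adjusted p = 2.4e-06). Its partner Cd80 rose by 2.3 ± 0.14, the maturation marker Cd83 by 2.04 ± 0.23, the inhibitory ligand Cd274 (PD-L1) by 2.28 ± 0.20 and the ICOS ligand Icosl by 1.72 ± 0.12. Cd70, the ligand of CD27, rose from 0.115 to 0.247 to 3.09 to 5.98 CPM (log2 difference 4.56 ± 0.43, adjusted p = 8.7e-07). Fscn1, which bundles actin in the processes of mature dendritic cells, rose by 2.54 ± 0.32, Cd200 by 3.6 ± 0.26 and the interleukin-2 receptor chain Il2ra by 2.62 ± 0.37. Vcam1, an adhesion molecule, rose from 4.24 to 11.8 to 73.8 to 231 CPM (log2 difference 4.07 ± 0.54, adjusted p = 5.8e-05).

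Antigen presentation differed between the classes. For class I, 21 of 23 genes rose (23 of 23 without culture 3), with a median of 1.11. Nlrc5, the class I transactivator, had 146, 117, 264 and 132 CPM and 865, 791, 925 and 576 CPM (log2 difference 2.24 ± 0.35, adjusted p = 0.00014; 2.47 without culture 3), and Tap1, the peptide transporter, 106, 91.5, 255 and 101 CPM and 651, 537, 671 and 464 CPM (log2 difference 2.07 ± 0.36, adjusted p = 0.00041; 2.46 without it). Both sets of libraries were separate, with the US library of culture 3 closest to the LPS group. Psmb9, a subunit of the immunoproteasome, rose by 1.34 ± 0.32 (1.66), the loading chaperone Tapbp by 1.56 ± 0.26 (1.94) and the light chain B2m by 0.95 ± 0.18 (1.1), each second value being without culture 3. H2-K1, a heavy chain whose reads may be shared with other class I genes, rose by 1.05 ± 0.22 although culture 3 without LPS overlapped the LPS range.

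For class II, 6 of 18 rose, 3 fell and the median was 0.28, or -0.3 with library totals, where 1 rose and 7 fell. H2-Ab1, the beta chain of I-A, had 720.3, 759, 908 and 522 CPM and 1600, 1361, 1304 and 876 CPM. The groups overlapped, because culture 4 with LPS lay below culture 3 without it, although each culture rose (log2 difference 0.81 ± 0.18, adjusted p = 0.0016; 0.23 and adjusted p = 0.082 with library totals). Cd74, the invariant chain, was similar (log2 difference 0.74 ± 0.18, adjusted p = 0.0028; 0.17 and adjusted p = 0.19 with library totals). Rfx5, a subunit of the factor that binds class II promoters, rose from 19.7 to 20.3 to 42.1 to 52.5 CPM (log2 difference 1.19 ± 0.10, adjusted p = 2.9e-07). Ciita, the class II transactivator, was not called (0.28 ± 0.28, adjusted p = 0.44), with culture 2 highest in both groups, and was called higher with the cultures as a block (adjusted p = 0.038).

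Inflammasome genes mostly rose, 13 of 19 with 5 lower. The sensor Nlrp3 went from 97.6, 88.2, 131 and 97.8 CPM to 556, 436, 528 and 435 CPM (log2 difference 2.24 ± 0.13, adjusted p = 1.7e-08), Casp4, the caspase that binds cytosolic LPS, from 11.7 to 46.4 to 114 to 193 CPM (log2 difference 2.77 ± 0.38, adjusted p = 6.6e-05; 3.18 without culture 3), and Casp1 by 1.66 ± 0.19. Mefv, which encodes pyrin, rose by 2.84 ± 0.36 and the DNA sensor Aim2 by 1.66 ± 0.15. The falls included Nlrp1b, from 20.01 to 44.6 to 7.93 to 14.8 CPM (log2 difference -1.75 ± 0.20, adjusted p = 6.2e-06), and P2rx7, the ATP-gated channel that triggers NLRP3 (log2 difference -0.97 ± 0.10, adjusted p = 1.4e-06).

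Some effector enzymes of activated myeloid cells rose strongly. Nos2, inducible nitric oxide synthase, had 1.08, 0.855, 10.1 and 1.21 CPM in US and 1168, 868, 1544 and 517 CPM in LPS libraries. Culture 3 was highest in both groups and culture 4 lowest with LPS (log2 difference 8.6 ± 0.89, adjusted p = 7.8e-06; 9.64 without culture 3). Acod1, which makes itaconate, went from 149.9, 150.5, 709.6 and 192 CPM to 5652, 5008, 5055 and 4978 CPM (log2 difference 4.16 ± 0.57, adjusted p = 6.5e-05; 4.98 without it). The arginine transporter Slc7a2 rose by 3.53 ± 0.42 (4.02 without culture 3), and Gch1, which supplies the cofactor of nitric oxide synthase, by 2.22 ± 0.29 (2.61 without it). Of the arginases, Arg2 rose from 3.42 to 7.76 to 12.9 to 23 CPM (log2 difference 1.83 ± 0.20, adjusted p = 3.5e-06) and Arg1 was not called at 23.7, 39.99, 22.5 and 6.65 and 28.3, 41.6, 17.1 and 6.13 CPM (adjusted p = 0.94). The cultures differed in Arg1 far more than the treatments did. Srm, spermidine synthase, fell from 17.4 to 22.3 to 4.1 to 6.23 CPM (log2 difference -1.95 ± 0.16, adjusted p = 2e-07). Of the 17 genes of this list 9 rose and 3 fell.

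In prostaglandin synthesis the inducible steps rose and others fell. Ptgs2, inducible cyclooxygenase, had 1.93, 4.2, 10.1 and 2.2 CPM without and 3565, 2506, 4114 and 2508 CPM with LPS (log2 difference 9.46 ± 0.70, adjusted p = 4.5e-07; 10.04 without culture 3). Ptges, which makes prostaglandin E2, rose from 2.04 to 4.2 to 28.2 to 49.5 CPM (log2 difference 3.72 ± 0.25, adjusted p = 6.9e-08). In contrast Ptgs1, the constitutive cyclooxygenase, fell from 57.8, 125, 38.5 and 83.4 CPM to 14.8, 30.00, 10.2 and 23.1 CPM, without overlap (log2 difference -1.95 ± 0.34, adjusted p = 0.00044). Tbxas1, thromboxane synthase, fell by 1.03 and Lta4h, which makes leukotriene B4, by 0.89 on the log2 scale. Over 18 genes of the 2 pathways 6 rose and 5 fell.

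Central metabolism moved less. Of 31 glycolysis and hypoxia genes 12 rose and 2 fell with a median of 0.25 (-0.33 with library totals). Slc2a6, a sugar transporter of lysosomes, rose by 2.52 ± 0.21, the phosphofructokinase Pfkp by 1.1 ± 0.15 and the hypoxia factor Hif1a by 0.91 ± 0.14. Pfkfb4, a regulator of the same step, fell from 22.8 to 25.7 to 8.17 to 10.7 CPM (log2 difference -1.37 ± 0.14, adjusted p = 1.8e-06). Lactate dehydrogenase Ldha (adjusted p = 0.99) and the glucose transporter Slc2a1 (adjusted p = 0.84) were not called, at 511 to 664 and 84.9 to 114 CPM without and 510.4 to 604 and 71 to 105 CPM with LPS, and both were called lower with library totals. Of 45 genes of the TCA cycle and oxidative phosphorylation 8 rose and 8 fell, below the 23.1% and 25.1% of all genes, with a median of 0.03 (-0.55 with library totals, where 1 rose and 41 fell). Without culture 3 the rises came to 14, and without culture 1 or culture 2 to 5; without culture 2 the falls also came to 5. Idh1, the cytosolic isocitrate dehydrogenase, fell from 139, 159.5, 145 and 127 CPM to 64, 57.6, 50.8 and 53.1 CPM (log2 difference -1.34 ± 0.09, adjusted p = 4.8e-08) and fumarase Fh1 fell by 0.85 on the log2 scale, while cytochrome c, Cycs, rose by 0.98 ± 0.13 and succinate dehydrogenase Sdha was not called (0.05 ± 0.07, adjusted p = 0.61).

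Cholesterol genes fell on balance, 17 of 34 lower and 6 higher, with a median of -0.50. Dhcr7, which makes cholesterol from its last precursor, went from 22.9, 19.8, 20.1 and 18.2 CPM to 5, 4.05, 5.18 and 5.09 CPM. No LPS library came near the US range (log2 difference -2.07 ± 0.14, adjusted p = 4.4e-08). Lss, lanosterol synthase, fell by 1.48 and the sterol carrier Stard4 by 1.49 on the log2 scale. Mylip, a ubiquitin ligase, rose by 1.2 ± 0.16. Ch25h, which makes the antiviral 25-hydroxycholesterol, rose from 2.74, 1.36, 14.4 and 2.99 CPM to 245, 142, 203 and 71.8 CPM (log2 difference 5.21 ± 0.69, adjusted p = 6.1e-05; 6.02 without culture 3).

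Genes of oxidant and metal handling rose in 18 of 29 cases and fell in 2 (none when either culture 1 or culture 2 was left out), with a median of 0.80. Slc7a11, the cystine importer, went from 381, 308, 489.5 and 347 CPM to 3108, 2789, 2606 and 2701 CPM (log2 difference 2.88 ± 0.15, adjusted p = 7.2e-09). Mitochondrial superoxide dismutase Sod2 rose by 2.35 ± 0.17, the oxidase subunit Cybb by 1.64 ± 0.15, thioredoxin reductase Txnrd1 by 1.6 ± 0.13 and the ferritin chain Fth1 by 1.16 ± 0.14. Lcn2, which binds bacterial iron carriers, had 5.1, 16.8, 11.2 and 76.2 CPM and 107, 211, 110.0 and 295 CPM (log2 difference 3.0 ± 0.65, adjusted p = 0.0024; 3.7 without culture 4). Culture 4 was highest in both groups, and it also held the most neutrophil marker RNA, as given further on.

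Uptake receptors and lysosomal genes did not move one way. Of 38 phagocytic, scavenger and Fc receptors 12 rose and 9 fell, and of 36 lysosomal genes 8 rose and 5 fell, beside 23.1% and 25.1% of all genes, with medians of 0.21 and 0.12 (-0.38 and -0.46 with library totals). The lysosomal rises came to 14 without culture 3 (13 without its US library alone) and to 5 without culture 1 or culture 2, and the falls to 3 without culture 2 or culture 3; with library totals 1 rose and 26 fell. Clec4e, the receptor Mincle, rose by 3.53 ± 0.38 (4.02 without culture 3) and Marco, a scavenger receptor at low level, from 0.18 to 0.898 to 1.81 to 6.01 CPM (log2 difference 3.33 ± 0.52, adjusted p = 0.00014; 4.2 without culture 3). Cd163, the haemoglobin scavenger receptor, was low throughout and fell from 1.13, 0.675, 0.78 and 0.355 CPM to 0.0334, 0.192, 0.0842 and 0.0236 CPM (log2 difference -3.13 ± 0.58, adjusted p = 0.00039; -3.92 without culture 2). The mannose receptor Mrc1 was not called (-0.32 ± 0.23, adjusted p = 0.26), and was called lower with the cultures as a block (adjusted p = 0.029). Tfeb, the transcription factor that drives lysosome formation, fell from 28.9, 24.6, 35.2 and 33.8 CPM to 4.8, 7.26, 4.89 and 8.67 CPM, without overlap (log2 difference -2.25 ± 0.18, adjusted p = 1.6e-07), while the lysosomal membrane protein Lamp2 rose by 0.86 ± 0.13.

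Cell cycle genes fell. Of 40 DNA replication genes 27 fell and 3 rose, and of 40 mitosis genes 31 fell and 1 rose, where 25.1% of all genes fell. The medians were -0.69 and -1.29 against -0.092 over all genes. E2f2, a transcription factor that drives entry into S phase, went from 23.4, 26.3, 20.8 and 33.1 CPM to 1.74, 2.53, 1.73 and 4.26 CPM, a 10.1-fold fall with the groups far apart (log2 difference -3.34 ± 0.31, adjusted p = 1.2e-06). The helicase subunits Mcm2 and Mcm7 fell by 1.46 and 1.21 on the log2 scale, the polymerase subunit Pold1 by 1.97 and the ribonucleotide reductase subunit Rrm2 by 1.15. Tyms, thymidylate synthase, was one of the 3 that rose (log2 difference 0.93 ± 0.22, adjusted p = 0.0027; 0.34 and adjusted p = 0.27 with library totals). Pcna, the sliding clamp, was not called (adjusted p = 0.91).

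In mitosis, Cdc20, which activates the anaphase-promoting complex, had 18.8, 24.5, 15.5 and 31.3 CPM without and 2.34, 5.1, 2.99 and 8.56 CPM with LPS. Culture 4 was highest in each group, and the highest LPS library was below the lowest US library (log2 difference -2.25 ± 0.37, adjusted p = 0.00024). Cenpf, a kinetochore protein, fell by 2.32, the kinesin Kif20a by 1.90 and the kinase Aurkb by 1.47 on the log2 scale. The 2 best known proliferation markers were not called. Mki67 stood at 296, 392, 212 and 482 and 349, 423, 298 and 496 CPM (0.18 ± 0.24, adjusted p = 0.57). Top2a (-0.74 ± 0.36, adjusted p = 0.12) was called lower with the cultures as a block (adjusted p = 3.3e-06) and without culture 4 (-0.86, adjusted p = 0.043). In set 3 alone, the fit with fewer libraries, 1 mitosis gene was called, with a median of -1.09. The list of CDK inhibitors and p53 targets was divided, with 12 of 31 higher and 13 lower. Cdkn1a, the CDK inhibitor p21, rose from 278, 241, 431 and 249 CPM to 1310, 1087, 1306 and 1050 CPM (log2 difference 1.99 ± 0.21, adjusted p = 2.5e-06), the stress gene Gadd45b by 3.04 ± 0.26 and Mdm2, the ligase of p53, by 1.16 ± 0.12. The CDK inhibitor Cdkn2c fell by 1.73 and the p53 target Sesn1 by 2.19 on the log2 scale.

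Promoters of cell cycle genes were searched for TTTGAA, the CHR element of mitotic genes, and for TTTCCCGC, a pattern of E2F sites. The first is short and was held by 14.2% of all genes with a promoter, by 13 of 33 mitosis genes (39.4%) and by 5 of 32 replication genes (15.6%). Lists that rose held it too, 5 of 12 GTPase genes (41.7%) and 10 of 42 antiviral genes (23.8%), and it was in 14.6% of all genes called lower. The second was held by 1.73% of all genes and by 3 of 32 replication genes (9.38%), but by 0 of 33 mitosis genes. It was in 2.21% of all genes called lower and in 1.37% of those called higher. Of lists that rose, it was in 1 of 13 NF-kB genes (7.69%), 1 of 24 cytokines (4.17%) and 0 of 12 GTPase genes. Both windows below were chosen as examples, from Cdc20 (chr4:118437344-118437423, minus strand, match from -18) and Mcm7 (chr5:138172005-138172084, minus strand, match from -165 on the opposite strand).
Cdc20: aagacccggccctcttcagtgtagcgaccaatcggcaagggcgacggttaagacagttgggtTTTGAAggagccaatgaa
Mcm7: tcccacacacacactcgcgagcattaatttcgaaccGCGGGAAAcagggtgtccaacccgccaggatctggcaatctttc

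Ribosome biogenesis genes fell in 38 of 48 cases and rose in 3 (1 without culture 2), with a median of -0.58 (-1.15 with library totals). Dkc1, the pseudouridine synthase dyskerin, went from 22.1, 20.8, 20.2 and 22.1 CPM to 3.25, 4.35, 2.75 and 5.01 CPM. The fall was 5.54-fold (log2 difference -2.47 ± 0.17, adjusted p = 4.7e-08), and the groups did not overlap. Nop56, a core protein of box C/D particles, fell by 1.29, Gnl3, nucleostemin, by 1.49 and Rrp12 by 1.38 on the log2 scale, and Wdr43 was among the 3 that rose (0.83 ± 0.09). Nucleolin, Ncl, lay lower in all LPS libraries but missed the threshold (-0.21 ± 0.08, adjusted p = 0.052; 0.039 with the cultures as a block).

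The ATF4 stress and amino acid list was mixed, with 6 of 30 higher and 10 lower. Atf4 itself was not called (0.20 ± 0.09, adjusted p = 0.096) and neither was Ddit3, which encodes CHOP (-0.11 ± 0.12, adjusted p = 0.47). Without culture 3 Atf4 was called higher (0.32, adjusted p = 0.0084), as it was in set 2 alone (0.35, adjusted p = 0.021). The amino acid transporter Slc7a5 fell by 1.13 and Aldh18a1, which starts proline synthesis, by 1.46 on the log2 scale, while the endoplasmic reticulum chaperone Hspa5 rose by 1.24 ± 0.15.

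Survival genes of the BCL2 family changed in both directions, 11 of 19 higher and 5 lower (3 without the US library of culture 1 or the LPS library of culture 2). The protective Bcl2l1 rose from 53, 47.4, 71.8 and 59.1 CPM to 185, 248, 152 and 160.5 CPM (log2 difference 1.68 ± 0.21, adjusted p = 2.1e-05) and so did the death-promoting Bcl2l11 (BIM; log2 difference 1.46 ± 0.13, adjusted p = 7e-07). Bcl2 fell from 15.4 to 27.6 to 4.87 to 9.32 CPM (log2 difference -1.59 ± 0.33, adjusted p = 0.0014), as did the death-promoting Bmf, by 2.04 on the log2 scale.

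Metalloproteinases and their inhibitors rose in 12 of 22 cases and fell in 1. With the cultures as a block 4 fell, without culture 1 there were 2, and with library totals 7 rose and 5 fell. Mmp13, a collagenase, rose by 3.5 ± 0.51 (3.78 without culture 3), the membrane-bound Mmp14 by 1.69 ± 0.22 and the inhibitor Timp1 from 4.96, 2.38, 5.72 and 2.86 CPM to 108, 42.6, 49.1 and 17.8 CPM (log2 difference 3.65 ± 0.45, adjusted p = 3.3e-05). Adamts4 was near absent without LPS, with 5, 11, 4 and 25 reads, and had 275, 161, 817 and 258 reads with it (log2 difference 5.39 ± 0.57, adjusted p = 4.8e-06; 4.54 without culture 3 and 6.04 without culture 4). Its LPS library of culture 3 was the highest by far.

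**Figure D4:**
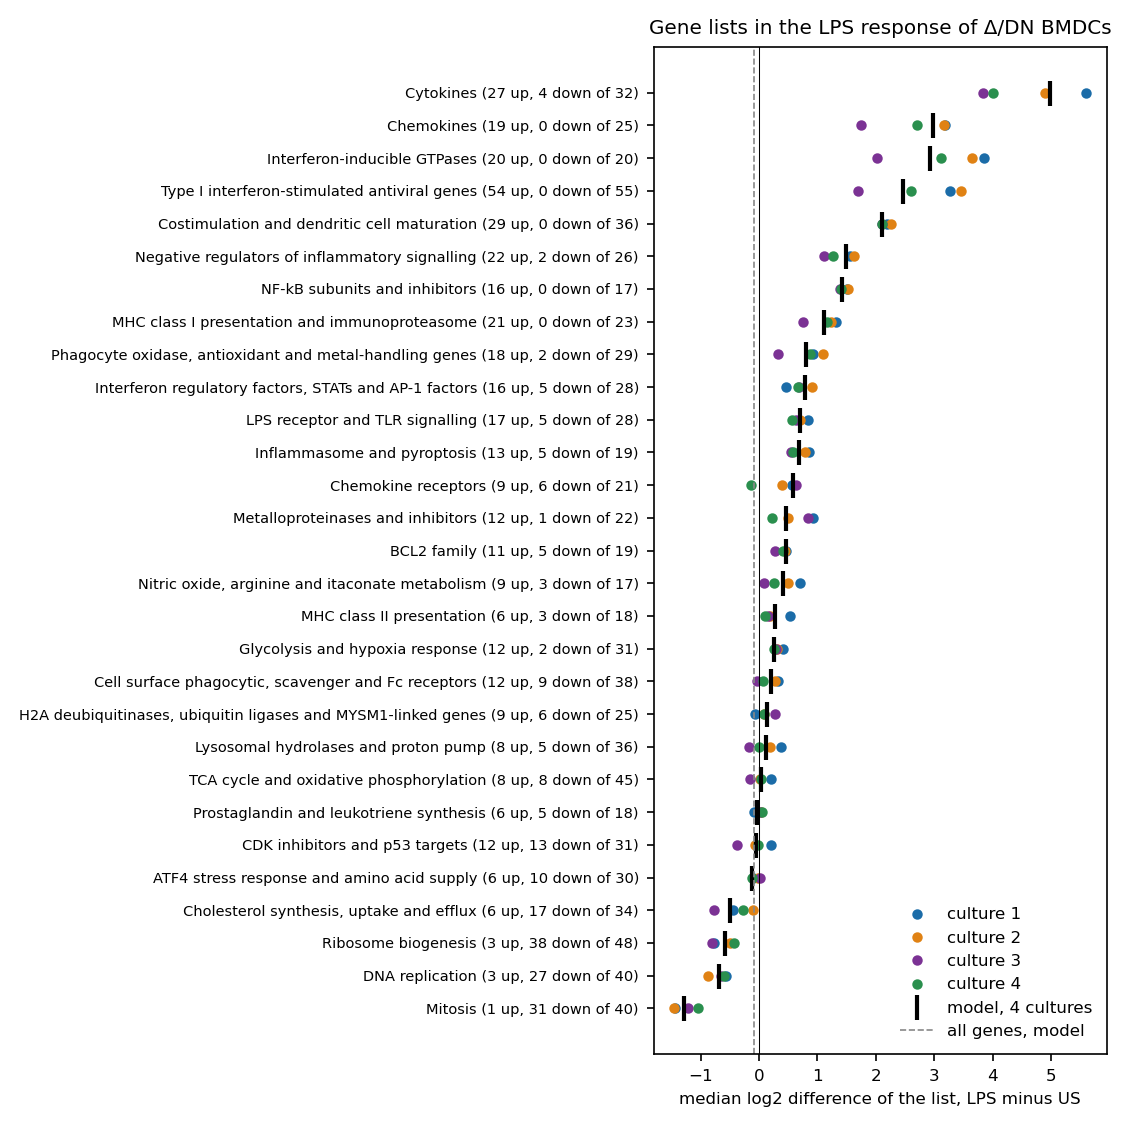
Median log2(LPS/US) of 29 pathway gene lists in Δ/DN cells. Dots are the 4 cultures, black ticks the median of the modelled differences, and the dashed line the median of all genes tested (-0.092). Cytokines are highest at 4.98 and mitosis lowest at -1.29, and the dot of culture 3 lies lowest for both interferon lists.

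The largest rises and falls outside these lists were picked by size among called genes with the same sign in all 4 cultures (which 59.7% of all genes tested had). Upward they included Slc1a2, a glutamate transporter, from 0.121, 0.383, 0.767 and 0.192 CPM to 66.8, 59.6, 82.2 and 39.6 CPM (log2 difference 7.43 ± 0.55, adjusted p = 4.4e-07; 7.88 without culture 3), Plat, tissue plasminogen activator, with 6 to 8 reads in US and 996, 1196, 1156 and 387 reads in LPS libraries (log2 difference 7.43 ± 0.61, adjusted p = 9.2e-07), and Ereg, the growth factor epiregulin (7.28 ± 0.43, 7.75 without culture 3). Macc1, with 6, 24, 0 and 10 US reads, rose to 2.59 to 8.28 CPM (log2 difference 5.89 ± 0.68, adjusted p = 1.2e-05; 5.19 without culture 3 and 6.63 without culture 2).

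Among the largest falls, Sbk1, a kinase, fell from 10.5, 7.84, 9.56 and 12.9 CPM to 0.801, 0.266, 0.477 and 0.685 CPM, 18.2-fold (log2 difference -4.19 ± 0.28, adjusted p = 4.5e-08). Ppargc1b, a coactivator of mitochondrial genes, went from 56.5, 48.3, 45.8 and 55.9 CPM to 3.14, 2.2, 4.06 and 3.51 CPM, 16-fold lower (log2 difference -4.0 ± 0.22, adjusted p = 1.2e-08). In both genes all LPS libraries were far below the US libraries. Neurl1b, a ubiquitin ligase, fell by 4.17, the lysophosphatidic acid receptor Lpar5 by 4.16, the activating receptor Cd300lb by 4.01 and B3gnt7, a glycosyltransferase, by 3.98 on the log2 scale. Gpr146 fell by 3.73, Slc16a14 by 3.70, Cnr2, the cannabinoid receptor of immune cells, by 3.59 and the kinase Aatk by 3.43 (-3.84 without culture 4). Further falls were those of Scd2, a fatty acid desaturase, from 307 to 558 to 65.1 to 145 CPM (log2 difference -2.15 ± 0.25, adjusted p = 1e-05), and Tgfbi, an extracellular matrix protein of macrophages, from 482 to 613 to 193 to 240.0 CPM (log2 difference -1.34 ± 0.17, adjusted p = 1.3e-05).

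Genes tied to MYSM1, to H2A ubiquitination and to its targets in blood cells were a list of 25, of which 9 rose and 6 fell, beside 23.1% and 25.1% of all genes (5 and 15 with library totals). Mysm1 reads, which come from the remaining allele and from any RNA of the deleted one, stood at 45.9, 42, 28.1 and 49 CPM without and 35.4, 34.9, 30.8 and 39.97 CPM with LPS. The groups overlapped (-0.23 ± 0.14, adjusted p = 0.2), and the US library of culture 3 was the lowest of its group. Without culture 3 Mysm1 was called lower (-0.29, adjusted p = 0.0055), as it was in set 2 alone (-0.29, adjusted p = 0.03). It was not called when any other single culture was left out. Counts per gene do not separate the alleles, so they do not check the genotype. Gfi1, a repressor in myeloid development and a known MYSM1 target, rose from 1.02, 0.686, 0.403 and 1.81 CPM to 21.6, 22, 14.8 and 17.2 CPM (log2 difference 4.22 ± 0.41, adjusted p = 2.5e-06; 4.83 without culture 4). Runx1, a factor of blood stem cells, fell from 108, 102, 124 and 129 CPM to 40.5, 46.4, 53 and 64.8 CPM (log2 difference -1.19 ± 0.08, adjusted p = 6.4e-08). Rnf2, the ligase that puts ubiquitin on H2A, rose by 1.17 ± 0.09, its partner Pcgf5 by 1.95 ± 0.23 and the H2A deubiquitinase Usp12 by 1.85 ± 0.15.

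The labelled cell type was checked against markers. Dendritic cell markers were present: Itgax (CD11c) stood at 870.1 to 1080 CPM and 1147 to 1751 CPM, and the lineage factor Zbtb46 rose from 26.5 to 41.1 to 52 to 77.2 CPM (log2 difference 0.90 ± 0.13, adjusted p = 4.8e-05). With library totals Itgax turned round from 0.51 ± 0.14 (adjusted p = 0.0067) to -0.07 (adjusted p = 0.54) and Zbtb46 was no longer called (0.32, adjusted p = 0.089). Flt3, the receptor for a growth factor of dendritic cell precursors, was low at 0.754 to 2.66 and 0.955 to 1.47 CPM. Of 15 conventional dendritic cell markers 5 rose and 5 fell, beside 23.1% and 25.1% of all genes. The falls came to 2 without culture 2 and in set 2 alone and to 3 without culture 4, and with library totals 1 rose and 8 fell. Macrophage markers were present too, their sum spanning 8500 to 13000 CPM in US and 8510 to 12200 CPM in LPS libraries. Of these 16 markers 2 rose and 4 fell, with differences from -3.13 to 2.87 and a median of 0.02. With the cultures as a block 5 rose and 6 fell, and with library totals 1 rose and 10 fell. Csf1r, the receptor of the macrophage growth factor, fell by 0.81 on the log2 scale, while the high-affinity Fc receptor Fcgr1 was not called (0.60 ± 0.35, adjusted p = 0.19; 0.0026 with the cultures as a block).

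Markers of other cells were summed per library. Monocyte markers came to 3080, 2390, 2640 and 3500 CPM in US and 4820, 3450, 2960 and 4240 CPM in LPS libraries. Of these 10 genes 5 rose and 1 fell, beside 23.1% and 25.1% of all genes. Neutrophil markers came to 190, 458, 223 and 1160 CPM in US and 317, 580, 347 and 1390 CPM in LPS libraries, with culture 4 highest in each. Of these 18 genes 2 rose, Csf3r (1.5 ± 0.23) and Hdc (5.68 ± 0.38), both of which other myeloid cells also express, and 1 fell; with the cultures as a block 4 rose and 3 fell. S100a8, which encodes a subunit of calprotectin, was at 38.5, 54.5, 35.9 and 291 and 37.3, 50.5, 45.9 and 336 CPM (0.09 ± 0.67, adjusted p = 0.92). Of the plasmacytoid markers Tcf4 rose by 2.68 ± 0.20, but Siglech, the defining one, had at most 12 reads in any library. Mast cell and basophil markers summed to 24.9 to 57.5 CPM and 34.3 to 66.3 CPM, and edgeR called none of the 8 tested, with 0 at an unadjusted p under 0.05 and 0 by DESeq2, while 1 was called higher with the cultures as a block and 1 without culture 4. B cell markers summed to at most 3.95 CPM, and T and NK cell markers to 87.9 to 154 CPM in US and 142 to 257 CPM in LPS libraries. The defining genes Cd79a and Cd3e were at or under 0.562 and 0.142 CPM, and Ighm, Igkc, Trac and Trbc2 at 0 in all 8 libraries. Of 13 stromal and endothelial markers 4 rose, among them Vcam1 and Pdgfrb (3.93 ± 0.24), and 1 fell. Of 8 progenitor markers Procr alone rose (3.47 ± 0.31) and 2 fell; with the cultures as a block 3 rose and 3 fell, and without culture 3 or culture 4 there was 1 fall. Kit was not called (0.35 ± 0.21, adjusted p = 0.18; 0.019 with the cultures as a block). The part of these cells in any gene's change was not tested.

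The cultures differed in the size of the response. The median absolute log2 difference over all genes was 0.678, 0.637, 0.596 and 0.546 in cultures 1 to 4. The order depended on the measure. Genes at least 1 log2 unit higher numbered 3197, 3299, 3602 and 2727, and those at least 1 log2 unit lower 4234, 3776, 2771 and 3070. Leaving out culture 3 left 9727 genes called, 8991 of them called in the same direction with all cultures. Leaving out any other single culture gave between 8329 calls (without culture 2) and 9516 (without culture 4).

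The response of Δ/DN cells was set beside that of Δ/+ cells, 4 US and 3 LPS libraries, in the same model. In Δ/+ cells 9951 genes were called (47.7%), and 8220 were called in the same direction in both genotypes against 7 in opposite directions. The difference between the responses was called for 1 gene of 20865 (0.00479%), and 1873 had an unadjusted p under 0.05. Emilin1, an extracellular matrix glycoprotein gene, fell in Δ/DN cells from 24.6, 24.2, 21.2 and 28.8 CPM to 13.1, 13.8, 10.7 and 15.8 CPM (-0.89 ± 0.15). In Δ/+ cells it rose from 15.2, 14.2, 19.9 and 14.8 CPM to 32.4, 30.7 and 23.1 CPM (0.83 ± 0.16). The difference was -1.72 ± 0.22 (adjusted p = 0.033), and the treatments did not overlap within either genotype. Refits that left out a library or a culture called it in 7 of 19 cases, with adjusted p from 0.017 to 0.4 (highest without Δ/DN culture 2), and its difference was between -1.86 and -1.6 in all 27 alternatives.

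With the cultures as a block, a fit the design supports because US and LPS libraries share cultures, 156 genes differed between the responses, 112 higher in Δ/DN cells and 44 lower. Among the 10 genes with the smallest p, Creb3l1, a membrane-bound transcription factor, rose by 1.91 ± 0.19 in Δ/DN and 3.66 ± 0.22 in Δ/+ cells (adjusted p = 0.16, 0.0085 with the block). Acvr1b, an activin receptor, was not called in Δ/DN cells (0.01 ± 0.12) and rose by 0.96 ± 0.13 in Δ/+ cells (adjusted p = 0.16, 0.029 with the block). Others fell in both genotypes, with the smaller estimate in Δ/DN cells given first: Myo7a by 2.2 and 3.02, Tmem104 by 1.80 and 2.59, Smyd2 by 0.67 and 1.41, Slc7a6 by 0.62 and 1.59, Npepl1 by 0.54 and 1.08, and Rrp12 by 1.38 and 2.25 on the log2 scale. Each of these 6 had an adjusted p of 0.16 without the block, and with it between 0.015 for Myo7a and 0.044 for Npepl1.

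For the inflammatory genes the responses lay side by side. Il6 rose by 9.95 ± 0.61 in Δ/DN and 9.57 ± 0.61 in Δ/+ cells (difference 0.38 ± 0.63), Il12b by 9.67 ± 0.38 and 10.31 ± 0.40 (difference -0.64 ± 0.40) and Tnf by 5.51 ± 0.33 and 5.01 ± 0.33 (difference 0.50 ± 0.40). None of these 3 differences was called, with adjusted p from 0.7 to 0.91. The interferon medians were lower in Δ/DN cells, 2.46 against 3.34 for the antiviral list and 2.92 against 3.97 for the GTPases, and without culture 3 they were 3.05 and 3.53. In set 2 alone, which holds every Δ/+ LPS library, the Δ/DN medians were 3.38 and 3.83. The part of the library set in the lower medians was not tested. Per gene the difference was -1.21 ± 1.32 for Rsad2 (adjusted p = 0.85) and -1.55 ± 1.26 for Isg15 (adjusted p = 0.78). Tlr4 fell by 0.82 in Δ/DN and 1.49 in Δ/+ cells on the log2 scale, and this difference was not called (adjusted p = 0.26).

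**Figure D5:**
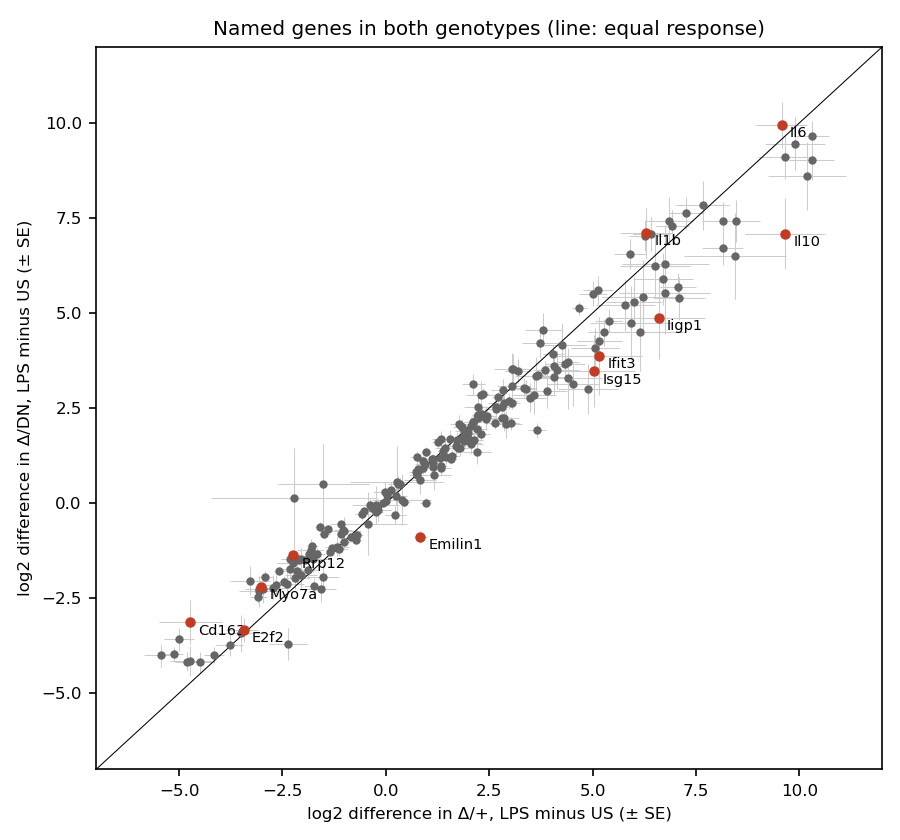
Log2(LPS/US) of the genes named in the text in Δ/+ cells (x axis) and Δ/DN cells (y axis), with bars of 1 SE and the line of equal response. Most genes lie along the line; red points are labelled examples, and Emilin1 among them lies on opposite sides of 0 at -0.89 in Δ/DN and 0.83 in Δ/+ cells.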

How the data were processed

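Each of the 15 libraries has a table in which the authors deposited unnormalized counts of reads for every gene. Per the labels' protocols, libraries came from total RNA after removal of ribosomal RNA (KAPA RNA HyperPrep, RiboErase). HISAT2 2.2.1, Trimmomatic 0.33, FastQC, bedtools, edgeR and featureCounts stand in the submitters' processing notes, beside builds mm39 and GRCm39. Whether counting used strand is not given in the sources used here, so reads of overlapping genes on opposite strands, like those of near-identical copies, may be shared. Among 50554 gene symbols, 48903 (96.7%) matched a RefSeq table of GRCm38.p6, used for names, biotypes and promoters; unmatched symbols took 1.21% to 2.16% of the reads of a Δ/DN library. Groups follow the sample titles.

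Genes were tested by quasi-likelihood in edgeR 4.0.16 under R 4.3.3 with limma 3.58.1 (glmQLFTest, robust, TMM factors, filterByExpr with a minimum count of 10), with Benjamini-Hochberg adjustment over 20865 genes. All 15 libraries entered 1 model with 4 groups, which share 1 estimate of spread, and library set as an additive term, whose meaning beyond the library names is not given. The SE is the log2 difference divided by the square root of F, and is approximate. For large differences it can depart from the SE of the model coefficient. The SEs of the responses of both genotypes therefore do not combine into that of their difference. Principal components and differences per culture used log2 CPM with a prior count of 2. No 2 libraries of a group agreed within sampling noise. Limits set by 3 reads cover counting error only, since reads carry no molecular identifiers. Scripts were tested on simulated data.

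US and LPS libraries were paired by culture name. Deviations from the group means correlated at 0.183, 0.313, 0.308 and 0.428 within cultures 1 to 4, and at -0.227 to 0.136 between different cultures. The pairing was taken to hold, although the value within culture 1 is close to the highest between cultures. The main model has no block for culture, and a fit with the cultures as a block is given where it changes a call. Alternatives were other size factors, DESeq2 1.42.0, no filter, no set term, Δ/DN libraries alone, each library set alone and leaving out each library or culture; library totals and leaving out Δ/DN cultures 3 and 4 were chosen after seeing the data. Genes named are the extremes of each of 41 lists (29 of pathways, 12 of cell markers) by p and size with set anchors, the largest, most abundant and most variable changes, and the 10 smallest p for the genotype difference. Results of a few genes are not reported here. Members and lists were chosen with earlier results of these data known.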

Additional observations from a re-analysis of the deposited data

Results flagged for a closer look

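In each group of 4 Δ/DN libraries, genes were looked at for 1 library whose gap to the nearest other library took up more of the group's range than Dixon's test allows at 95%, which chance does in about 1 in 20 groups. Of 452 pairs of a named gene and a group 61 (13.5%) met this. The 1 in 20 does not apply to that share, because named genes include the most variable changes and cases from 1 library are not independent. In 46 of the 61 the odd library was the US library of culture 3, and each time it was the highest of its group. Among antiviral and interferon-response genes these were Rsad2 at 615 CPM, Oasl1 at 64.6 CPM, Ifit1 at 296 CPM, Ifit2 at 467 CPM, Ifit3 at 242 CPM, Isg15 at 139 CPM, Irf7 at 174 CPM, Samhd1 at 725 CPM, Irf1 at 86.1 CPM and Ifnb1 at 0.182 CPM. Among interferon-inducible GTPases these were Iigp1 at 18.7 CPM, Gbp5 at 173 CPM, Gbp2 at 462 CPM, Irgm1 at 218 CPM and Gvin1 at 2040 CPM. Among cytokines, chemokines and their receptors these were Tnf at 108 CPM, Il1b at 124 CPM, Il1a at 83 CPM, Il1rn at 476 CPM, Cxcl9 at 5.31 CPM, Cxcl10 at 144 CPM, Ccl3 at 124 CPM, Ccl2 at 87.3 CPM and Ccrl2 at 17.1 CPM. Among sensors, costimulation and presentation genes these were Cd14 at 161 CPM, Tlr3 at 30.6 CPM, Clec4e at 326 CPM, Marco at 0.898 CPM, Cd40 at 39.3 CPM, Tap1 at 255 CPM, Tapbp at 672 CPM, Psmb9 at 59 CPM, Casp4 at 46.4 CPM and Procr at 43.1 CPM. Among enzymes, transporters and other genes these were Nos2 at 10.1 CPM, Acod1 at 710 CPM, Gch1 at 57.9 CPM, Ptges at 4.2 CPM, Slc2a6 at 154 CPM, Ldha at 664 CPM, Slc2a1 at 114 CPM, Cycs at 68.7 CPM, Ch25h at 14.4 CPM, Fth1 at 3920 CPM, Usp12 at 117 CPM and Pcgf5 at 57.5 CPM. For comparison, the other 3 US libraries held 31 to 51.2 CPM of Rsad2 and 18.7 to 23.2 CPM of Il1b. The TMM factor of the same library, 1.03, was also set apart from the other 1.3 to 1.33.

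The remaining cases were spread over other libraries. The LPS library of culture 1 held Acod1 at 5650 CPM (above the others at 4980 to 5060), Ccl6 at 2730 CPM (above the others at 2250 to 2290) and Rnf2 at 38.8 CPM (above the others at 34.1 to 34.6). The LPS library of culture 2 held Atf4 at 112 CPM (below the others at 123 to 125), Ciita at 310 CPM (above the others at 129 to 156) and Dhcr7 at 4.05 CPM (below the others at 5 to 5.18). The LPS library of culture 4 held Cd86 at 177 CPM (below the others at 275 to 293), Nfkb2 at 526 CPM (below the others at 625 to 635), Plat at 4.57 CPM (below the others at 16.2 to 17.7), S100a8 at 336 CPM (above the others at 37.3 to 50.6), Txnrd1 at 1240 CPM (above the others at 1020) and Zc3h12a at 220 CPM (below the others at 263 to 268). The US library of culture 1 held Ccr1 at 144 CPM (below the others at 185 to 193). The US library of culture 4 held Lcn2 at 76.2 CPM (above the others at 5.1 to 16.8) and S100a8 at 291 CPM (above the others at 35.9 to 54.5). S100a8 and Lcn2 are genes of neutrophils, whose markers were highest in culture 4 (1160 CPM in US and 1390 CPM in LPS). S100a8 is itself one of these markers and so is part of both sums. The part of neutrophils in these values was not tested.

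The response of Emilin1 differed between the genotypes by a test of the difference itself, at -1.72 log2 units (edgeR's quasi-likelihood test, adjusted p = 0.033), being lower in all 4 Δ/DN LPS libraries and higher in all 3 Δ/+ LPS libraries than in the US libraries of the same genotype.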

How the results depend on the processing

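Of the 200 genes named here as called in Δ/DN cells, 129 were called in the same direction under all 30 alternatives. Most of the other 71 (70) missed the threshold in library set 3 alone, which holds 2 Δ/DN cultures and fewer libraries than set 2. There 1948 genes were called, 1177 higher and 771 lower. With library totals 2361 genes were called higher and 11185 lower, H2-Ab1, Cd74, Tyms and Zbtb46 were no longer called, and Itgax turned round to -0.07. DESeq2 called 10548 genes, the fit without a filter 9366, RLE size factors 9896 and the fit without the set term 9692. The replicate block by culture gave 10973 calls, kept the direction of 9861 of the 10052 and changed no call of a gene named here other than those given beside it, and the Δ/DN libraries alone gave 9981 calls with it and 8823 without. Leaving out single libraries or cultures gave 8329 to 10170 calls, 4109 to 5037 higher and 4220 to 5192 lower, and removed 1 named call, Isg15 without culture 1. For the difference between genotypes, with 1 gene called, the count was 118 by DESeq2, 34 without the filter, 156 with the block, 4 in set 2 alone, 9 without Δ/DN cultures 3 and 4, 0 with library totals and 0 to 44 when single libraries or cultures were left out (15 without the LPS and 3 without the US library of culture 3, 44 without both). The cause of these changes was not tested. Depth limits genes with few US reads, such as Il12a, Il10 and Ifnb1, whose differences rest on 0 to 14 reads per US library.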
